A study of Bos taurus with 2 samples.

Results

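ONECUT neurons here are cells of day 25 cow embryos that had messenger RNA of at least 2 of ONECUT1, ONECUT2, EBF2 and MGAT4C. They also met the limits given next. A cell barcode was counted as an ONECUT neuron when it held at least 1000 UMI (molecules counted by their unique tag) and at least 500 genes, when the 4 genes summed to at least 3 UMI with at least 2 of them present, and when it had under 3 UMI of INSM1, HES6 and DLL3 together, no DBH UMI and under 10 UMI of the collagens COL1A1, COL1A2 and COL3A1 together. Of 4159 kept barcodes 161 met the rule. Replicate 1 held 81 of them among 1843 barcodes, a share of 4.40% (exact Clopper-Pearson 95% interval 3.51 to 5.43). Replicate 2 held 80 among 2316, a share of 3.45% (2.75 to 4.28). Among barcodes with at least 3 UMI of ELAVL4, a gene of neurons that have left the cell cycle, 37 of 160 in replicate 1 and 49 of 209 in replicate 2 were ONECUT neurons (23.1% and 23.4%).

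The study profiled bovine embryos made chimeric with bovine embryonic stem cells and collected on day 25, in 1 group of 2 libraries, so that no treated or control embryos stand against each other. The embryos were dissociated with papain and sorted before capture on the 10x Genomics Chromium 3′ platform, and what the sort kept is not stated. Whether each library had its own embryos is not stated either. P-values measure how far differences between sets of cells varied between these 2 libraries, with the spread partly borrowed across genes. That variation may be technical. A reporter gene named GFP has a row of counts, and the labels do not say which cells carried it.

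ONECUT1 and ONECUT2 are cut-homeodomain transcription factors that are switched on in many early-born neurons of the mouse spinal cord, hindbrain and retina as these leave the cell cycle. EBF2 belongs to the EBF (COE) family of helix-loop-helix factors, which act in newly formed neurons of vertebrates during differentiation and migration. MGAT4C is by sequence a member of the MGAT4 family of Golgi enzymes, whose other members start a branch on N-linked sugar chains. INSM1, HES6 and DLL3 mark neurons that have only just been born, and DBH, which makes noradrenaline, marks noradrenergic neurons.

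The 4 genes that chose the cells were unevenly spread among them. ONECUT2 had a UMI in 131 ONECUT neurons, MGAT4C in 118, ONECUT1 in 110 and EBF2 in 59. At least 1 of ONECUT1 and ONECUT2 was present in 155 cells, and the other 6 entered through EBF2 and MGAT4C. Cells with 2, 3 and 4 of the genes numbered 79, 68 and 14. ONECUT2 and MGAT4C were found together in 96 cells and ONECUT1 and ONECUT2 in 86, while EBF2 and MGAT4C met in 29. The median sum of the 4 genes was 7 UMI in replicate 1 and 11.5 UMI in replicate 2, with maxima of 63 and 65. At the edge of the rule, 19 ONECUT neurons had a sum of exactly 3 UMI, 24 barcodes stayed outside with 2 UMI in 2 genes, and 61 stayed outside because 3 or more UMI came from 1 gene, which was MGAT4C in 41 of them. The limit on INSM1, HES6 and DLL3 kept out 57 barcodes that passed on the 4 genes, whereas the limits on DBH and collagen kept out 0 further ones. No barcode sequence was shared between the libraries among ONECUT neurons, against 2 among all kept barcodes.

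**Figure D1:**
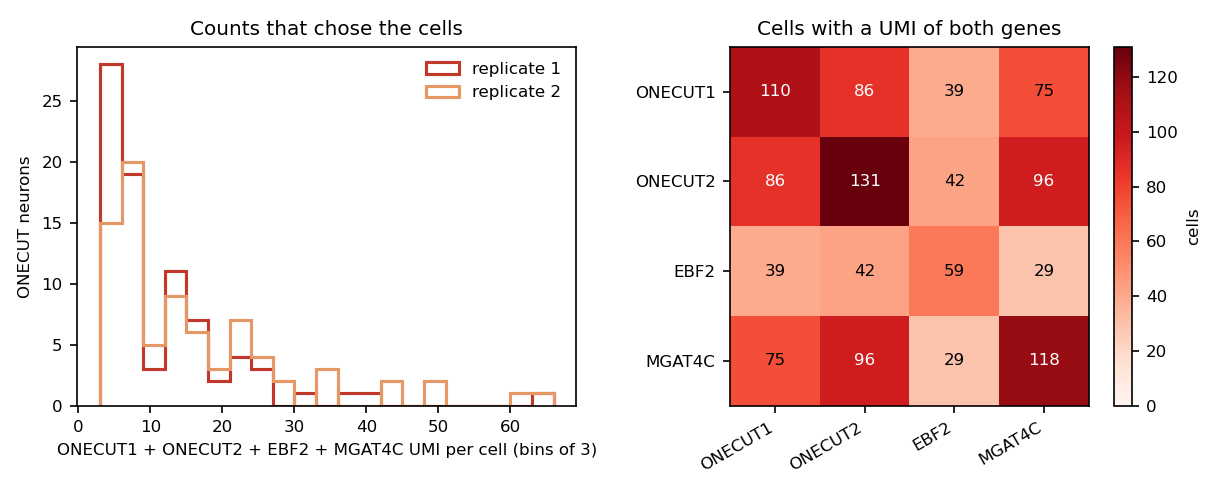
Counts of the genes that chose the ONECUT neurons. Left, number of cells (y axis) by summed UMI of ONECUT1, ONECUT2, EBF2 and MGAT4C (x axis, bins of 3 UMI) in each replicate; most cells lie near the lower limit of 3 UMI, and the highest hold 63 and 65. Right, number of the 161 cells with a UMI of both the row and the column gene; the diagonal gives each gene alone, from 131 cells for ONECUT2 to 59 for EBF2.

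As a description of what the rule selected, levels are given as CPM (the UMI of a gene in the summed cells of a library, scaled to a common total), in replicate 1 and then replicate 2. MGAT4C stood at 982 and 1094 CPM in ONECUT neurons, against 27.4 and 26.9 in all other kept barcodes. ONECUT2 stood at 456 and 559 CPM in ONECUT neurons, against 24.6 and 22.8 in the other barcodes. ONECUT1 had 283 and 273 CPM in ONECUT neurons and 9.78 and 9.14 in the other barcodes. EBF2 had 248 and 313 CPM in ONECUT neurons and 10.4 and 11.7 in the other barcodes. The same 4 genes were also above the level of all other barcodes in newborn neurons (kept barcodes with 3 or more UMI of INSM1, HES6 and DLL3), where ONECUT1 had 126 and 117 CPM and MGAT4C 177 and 119 CPM. ONECUT3, the other family member, gave 3 UMI in 3 ONECUT neurons and was not tested.

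The neuron label was checked against markers, leaving out the genes of the rule. All 10 neuron markers were present in ONECUT neurons, with a summed level of 5618 and 7987 CPM, against 1292 and 1355 CPM in all other kept barcodes. ELAVL4 itself had a UMI in 84.0% and 88.8% of ONECUT neurons and in 20.1% and 21.3% of the other barcodes; 22 ONECUT neurons had none. The noradrenergic list without DBH, which the rule set to 0, summed to 568 and 497 CPM in ONECUT neurons, against 502 and 468 CPM in the other barcodes. Most of this sum was GATA3 in both groups. GATA2 or GATA3 had a UMI in 60.5% and 72.5% of ONECUT neurons and in 60.7% and 61.0% of the other barcodes. HAND2 and HAND1 were at 0 UMI in ONECUT neurons, and TH had a UMI in 1 and 4 of them. Markers of neural crest and glia summed to 72.3 and 58.2 CPM in ONECUT neurons, above the 39.0 and 36.6 CPM of the other barcodes; SOX10, FOXD3 and ERBB3 were at 0, and TFAP2A of this list alone had 68.0 and 51.0 CPM in ONECUT neurons. The 7 mesenchyme markers other than the collagens of the rule summed to 17.5 and 18.2 CPM in ONECUT neurons, against 256 and 457 CPM in the other barcodes, with PDGFRB, TWIST1 and POSTN at 0. Erythroid markers summed to 592 and 683 CPM, against 11049 and 19009 CPM, with ALAS2, KLF1 and SLC4A1 at 0. Their remaining erythroid signal was mostly the embryonic globin HBZ, which stood near the same level in newborn and noradrenergic neurons (327 and 353 CPM in ONECUT neurons, 330 and 275 CPM in newborn neurons, 305 and 319 CPM in noradrenergic neurons).

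A measured difference in RNA make-up ran through every comparison. The 40 listed ribosomal protein genes held a median of 1.14% and 1.06% of the UMI of an ONECUT neuron, against 7.22% and 10.1% in newborn neurons, 6.23% and 6.17% in noradrenergic neurons, and 2.32% and 3.37% in all other kept barcodes. Under 3% of UMI were ribosomal in 112 of 161 ONECUT neurons (69.6%), in 30 of 168 newborn neurons (17.9%), in 10 of 85 noradrenergic neurons (11.8%) and in 2061 of 3998 other barcodes (51.6%). The limit of 3% was chosen after these values were seen, and 21 ONECUT neurons lay between 2% and 4%. The median mitochondrial share of UMI was 0.213% and 0.203% in ONECUT neurons, against 0.384% and 0.347% in the other barcodes. Cells under 3% were also shallower, with a median of 4985 UMI against 8172 UMI in ONECUT neurons at or above it. Lists in the comparison with all other barcodes are therefore also counted within barcodes under 3% and within those at or above it, ribosomal protein genes aside, and in the other comparisons within those at or above it. Except where such a count is given, the part of this difference in a result was not tested.

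**Figure D2:**
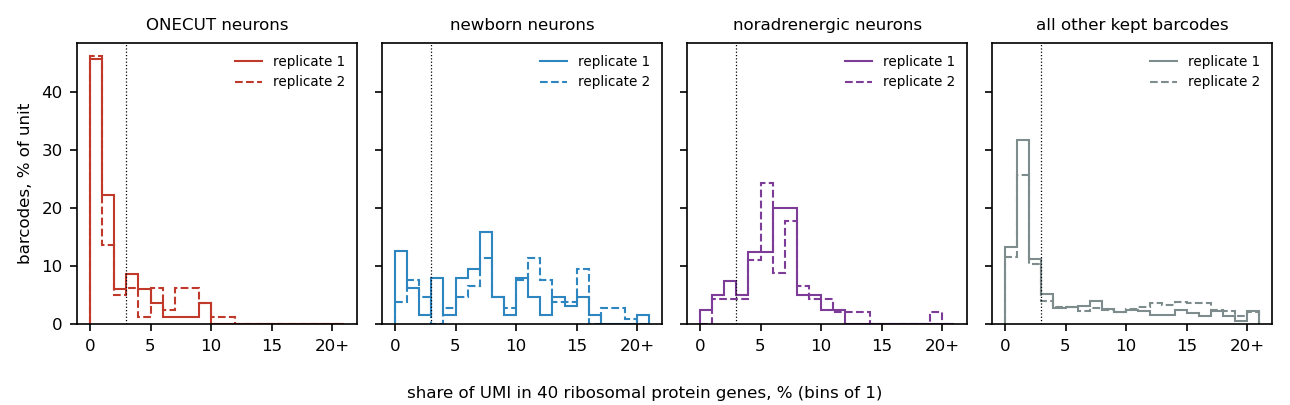
Share of UMI in 40 ribosomal protein genes (x axis, percent, bins of 1, the last bin holding 20% and above) against the percentage of barcodes of each unit (y axis), for ONECUT neurons, newborn neurons, noradrenergic neurons and all other kept barcodes, with a line for each replicate and a dotted line at 3%. ONECUT neurons pile up under 3% (112 of 161), whereas 30 of 168 newborn and 10 of 85 noradrenergic neurons lie there.

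The first comparison set ONECUT neurons against all other kept barcodes, newborn and noradrenergic neurons included, to show what else distinguished them in the embryo. Neuronal genes were higher in ONECUT neurons across the board, and genes of Notch signalling, neural progenitors and the cell cycle were lower. With counts summed per library, edgeR called 2281 genes higher and 2469 lower out of 13444 tested at an adjusted p under 0.05, which is 35.3% of genes (17% higher, 18.4% lower). The median log2 difference over all genes was -0.12. Within barcodes under 3% ribosomal protein 30.6% of genes were called (15.2% higher, 15.4% lower), and within those at or above it 16.3% (7.35% higher, 8.98% lower). Genes that vary with ONECUT1, ONECUT2, EBF2 or MGAT4C from cell to cell were bound to differ here. A call means that the difference was large against the spread that edgeR estimated. That spread was mostly borrowed across genes, with 1 residual degree of freedom and a median prior of 34.7. Only the named rises and falls were required to move the same way in both libraries.

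Every one of the 22 tested pan-neuronal genes was called higher in ONECUT neurons, with a median log2 difference of 2.59, and all 22 were called within each ribosomal class. DCX, which binds the microtubules of migrating neurons, had 572 and 657 CPM in ONECUT neurons and 112 and 87.9 CPM in the other barcodes (log2 difference 2.73, SE 0.14). STMN2, a microtubule regulator of growing axons, had 1738 and 2648 CPM, against 450 and 502 CPM (2.27, SE 0.15). MYT1L, a repressor of non-neuronal genes, led the list with 434 and 422 CPM, against 39.6 and 32.4 CPM (3.68, SE 0.15). TUBB3, the neuronal beta-tubulin, had 482 and 845 CPM, against 133 and 152 CPM, and ELAVL3 had 270 and 331 CPM, against 117 and 107 CPM. The libraries of the groups did not overlap for any of these 5 genes, but the share of all tested genes without overlap was not counted.

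Among the 16 tested transcription factors of neuronal differentiation 9 were called higher and 0 lower. EBF1, a relative of EBF2 that the rule did not use, led the named rises, with 1464 and 1564 CPM in ONECUT neurons and 61.1 and 40.6 CPM in the other barcodes (5.02, SE 0.17). It had a UMI in 55 and 59 ONECUT neurons. EBF3 stood at 210 and 242 CPM, against 22.5 and 16.9 CPM (3.64, SE 0.20). NHLH2, a helix-loop-helix factor of young neurons, had 32.9 and 51.0 CPM, against 2.45 and 2.30 CPM. Within the ribosomal classes 7 of 13 were higher under 3% and 6 of 13 at or above it, where ZEB2 and TCF4 were called lower. EBF1 and EBF3 were called higher in both classes.

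**Figure D3:**
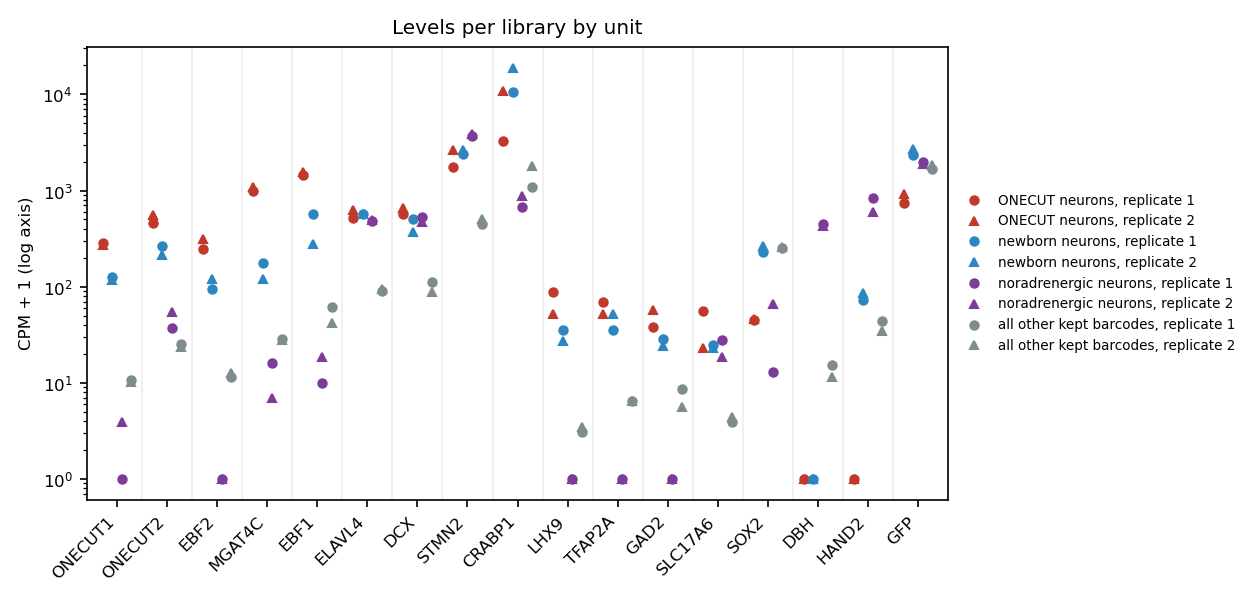
Level of each gene (x axis) as CPM + 1 on a log axis (y axis) in ONECUT neurons, newborn neurons, noradrenergic neurons and all other kept barcodes, with a circle for replicate 1 and a triangle for replicate 2; a value of 1 means no UMI. ONECUT1, ONECUT2, EBF2, MGAT4C, DBH and HAND2 were used to choose cells. EBF1, at 1464 and 1564 CPM, and ELAVL4, at 517 and 633 CPM, lie far above all other barcodes, while SOX2 and GFP lie below them.

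LHX9, a LIM-homeodomain factor of dorsal spinal interneurons in mouse, had 87.7 and 51.0 CPM in ONECUT neurons and 2.07 and 2.51 CPM in the other barcodes, yet its 68 UMI came from 8 cells and 63.2% of them from 3 cells. UNCX, a homeobox factor, was more evenly spread, with a UMI in 16 and 24 cells and 50.4 and 69.2 CPM, against 3.76 and 3.79 CPM. CNTNAP5, a neurexin-related adhesion protein, had 1440 and 1691 CPM in ONECUT neurons, against 83.7 and 83.3 CPM (4.32, SE 0.15). DNER, a neuronal membrane protein with EGF repeats, had 388 and 391 CPM, against 28.5 and 24.9 CPM (3.97, SE 0.16). For these 4 genes the libraries of the groups did not overlap, which their choice as large rises in both libraries made likely beforehand. NDST4, which modifies heparan sulphate, LRRTM4, a leucine-rich synaptic protein, SNTG1, a syntrophin, ROBO3, a receptor of commissural axons, SCN2A, a sodium channel, KLHL1, ZNF385D, CLVS1, FSTL5 and HECW1, a ubiquitin ligase, had log2 differences between 3.90 and 4.75. All 15 named rises were called within barcodes under 3% ribosomal protein and 14 within those at or above it, the exception being SCN2A (2.25, edgeR adjusted p = 0.15). LRRTM4 stood at 175 and 69.0 CPM in the ONECUT neurons at or above 3%, against 1130 and 534 CPM in those under 3%.

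Axon guidance genes had 21 of 34 tested members higher and 4 lower (NTN1, UNC5B, UNC5C and SLIT2), with a median log2 difference of 1.02. ROBO1, a Slit receptor, reached 3983 and 3697 CPM in ONECUT neurons, against 770 and 542 CPM in the other barcodes. DCC, the netrin receptor that draws commissural axons to the midline in mouse, had 837 and 852 CPM, against 112 and 93.2 CPM (3.14, SE 0.14). Its ligand NTN1 was lower, at 19.7 and 7.28 CPM in ONECUT neurons and 63.8 and 66.3 CPM in the other barcodes. Counts within the classes were 21 of 34 higher and 2 lower under 3%, and 13 of 34 higher and 3 lower at or above it.

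Adhesion genes had 26 of 32 tested members higher and 2 lower, the cadherins CDH11 and CDH6 (median 1.74). DSCAM, an immunoglobulin adhesion protein, had 1396 and 903 CPM in ONECUT neurons, against 156 and 151 CPM. CNTNAP2, which organises potassium channels on axons, had 1541 and 857 CPM, against 137 and 122 CPM. Ion channels and receptors showed 30 of 35 higher and 0 lower (median 2.62), 31 of 33 under 3% and 21 of 33 at or above it. The AMPA receptor subunit GRIA2 had 484 and 315 CPM in ONECUT neurons, against 48.6 and 32.1 CPM (3.40, SE 0.15). Genes of synaptic vesicles and secretory granules had 26 of 35 higher and 0 lower (median 1.93), with 21 of 29 higher and VAMP2 lower under 3%, and 23 of 31 higher at or above it. SYT1, the calcium sensor of vesicle release, had 2082 and 1786 CPM in ONECUT neurons, against 467 and 450 CPM, and a UMI in 80 of 81 and 77 of 80 ONECUT neurons. Adhesion counts were 24 of 32 higher under 3% and 16 of 32 at or above it, where CDH11, CDH6, TENM3 and TENM4 were lower.

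**Figure D4:**
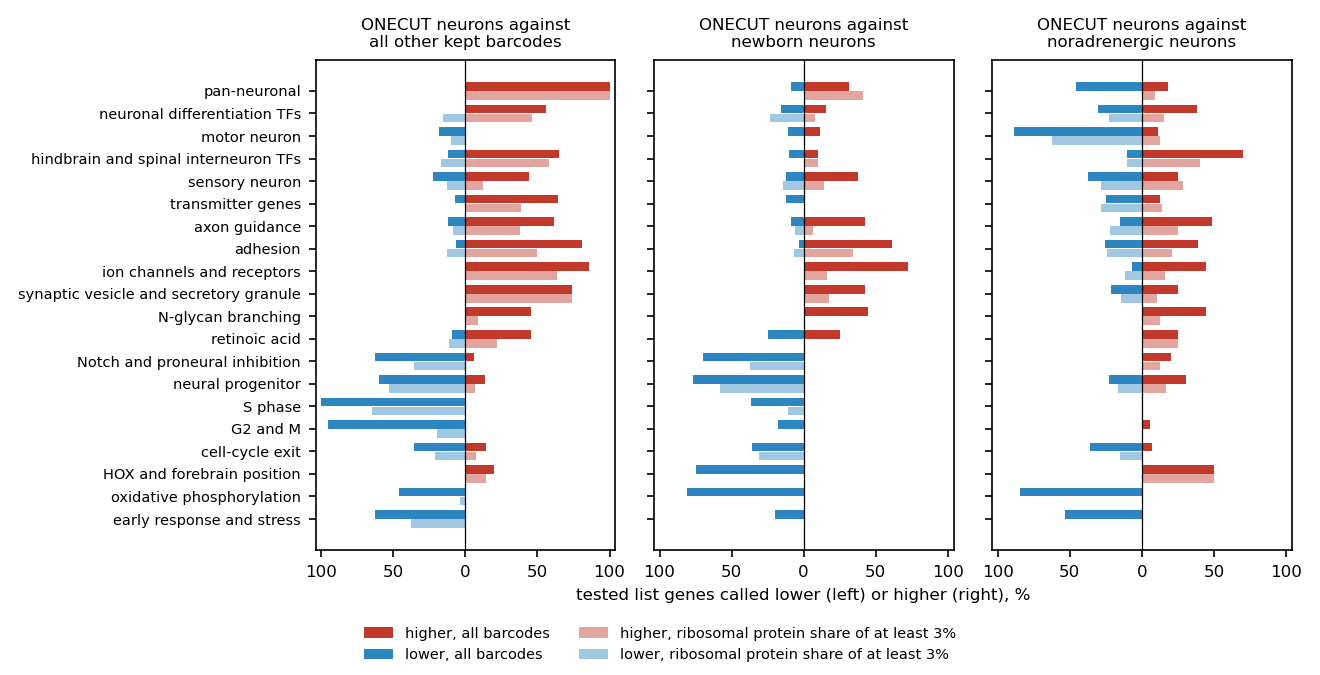
Percentage of the tested genes of each list (rows) called lower (bars to the left) or higher (bars to the right) by edgeR in ONECUT neurons against all other kept barcodes, newborn neurons and noradrenergic neurons, over all barcodes (dark) and over barcodes with a ribosomal protein share of at least 3% (pale). Of all genes 35.3%, 29.9% and 31% were called in the 3 comparisons over all barcodes; pan-neuronal genes reach 22 of 22 in the leftmost panel, and most bars shorten in the pale set, where there are fewer cells.

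ONECUT neurons were mixed in type. Of 17 tested transcription factors of hindbrain and spinal interneurons 11 were called higher and 2 lower, FOXP2 among them, a list whose members mark different neuron classes in mouse. Under 3% ribosomal protein 9 of 14 were higher and FOXP2 lower, and at or above it 7 of 12 were higher and 2 lower. TFAP2A or TFAP2B, AP-2 factors of inhibitory interneurons, noradrenergic neurons and neural crest, had a UMI in 42.0% and 47.5% of ONECUT neurons, against 6.64% and 6.40% of other barcodes. LHX1 or LHX5, found in several inhibitory and some excitatory interneurons, had a UMI in 8.64% and 15.0%, against 1.02% and 1.12%. LHX2 or LHX9 had a UMI in 8.64% and 13.8%, against 2.04% and 2.28%. With every cell thinned to 2000 UMI these shares were 20.3% and 27.8% of ONECUT neurons for TFAP2A or TFAP2B, against 4.497% and 3.71% of the other barcodes, 1.35% and 6.33%, against 0.317% and 0.445%, for LHX1 or LHX5, and 5.41% and 8.86%, against 0.697% and 0.692%, for LHX2 or LHX9. The other neurons shared some of these genes. TFAP2A or TFAP2B had a UMI in 30.2% and 43.8% of newborn neurons and in 65.0% and 64.4% of noradrenergic neurons. LHX2 or LHX9 had a UMI in 17.5% and 9.52% of newborn neurons and LHX1 or LHX5 in 11.1% and 10.5%, and both pairs in 0 of 40 and 0 of 45 noradrenergic neurons, whose barcodes, like those of newborn neurons, were deeper. PAX2, a factor of inhibitory interneurons, had a UMI in 5 and 7 ONECUT neurons, and in the ribosomal classes it was seen only under 3% (33.9 and 26.4 CPM, against 0 UMI at or above it). GATA2 or GATA3, both among the 11 called, had a UMI in 60.5% and 72.5% of ONECUT neurons, 77.8% and 78.1% of newborn neurons, 85.0% and 93.3% of noradrenergic neurons and 60.7% and 61.0% of all other barcodes.

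Transmitter genes were present in a minority of cells. Of 14 tested 9 were higher and GCH1 lower, with 6 of 11 higher and GCH1 lower under 3% ribosomal protein, and 5 of 13 higher at or above it. A gene of inhibitory transmission (GAD1, GAD2, SLC32A1 or SLC6A5, which make or load GABA and glycine or take glycine up) had a UMI in 23.5% and 25.0% of ONECUT neurons, 14.3% and 17.1% of newborn neurons, 0 of 40 and 1 of 45 noradrenergic neurons, and 3.12% and 3.31% of all other barcodes. GAD2 stood at 37.3 and 56.4 CPM in ONECUT neurons and 7.62 and 4.67 CPM in the other barcodes (3.08, SE 0.41). The vesicular glutamate transporters SLC17A6 or SLC17A7, of excitatory neurons, had a UMI in 8.64% and 8.75% of ONECUT neurons and 1.36% and 0.805% of all other barcodes. Other neurons shared them, with 6.35% and 4.76% of newborn and 12.5% and 6.67% of noradrenergic neurons. Thinned to 2000 UMI, the shares were 1.59% and 2.91% of newborn and 5.00% and 4.44% of noradrenergic neurons. TPH2 or FEV, of serotonin neurons, had a UMI in 4 and 3 ONECUT neurons. CHAT or SLC18A3, of cholinergic neurons, had 0 of 81 and 0 of 80, which allows a share of up to 3.70% and 3.75% of cells with a UMI by the limit of 3 counts (exact 95% upper limits 4.45% and 4.51%). With every cell thinned to 2000 UMI, the inhibitory genes were found in 13.5% and 17.7% of ONECUT neurons, against 1.46% and 2.03% of the other barcodes, and the glutamate transporters in 8.11% and 3.80%, against 0.633% and 0.544%.

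These genes met in particular cells. Inhibitory genes were present in 39 ONECUT neurons, 10 of which also had LHX1 or LHX5 (19 cells in all) and 8 of which had PAX2 (12 cells in all). Of the 18 cells with LHX2 or LHX9, 6 had a glutamate transporter, out of 14 cells with one, and 0 had an inhibitory gene. LMX1B, a factor of serotonin and dorsal neurons, was present in 19 cells, among them 4 of the 7 with TPH2 or FEV. Inhibitory and glutamate genes met in 2 cells. EBF2 was present in 8 of the 39 cells with an inhibitory gene and in 8 of the 14 with a glutamate transporter. These counts carry no test, because cells of a library are not replicates, and absence at this depth does not show that a gene was silent.

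**Figure D5:**
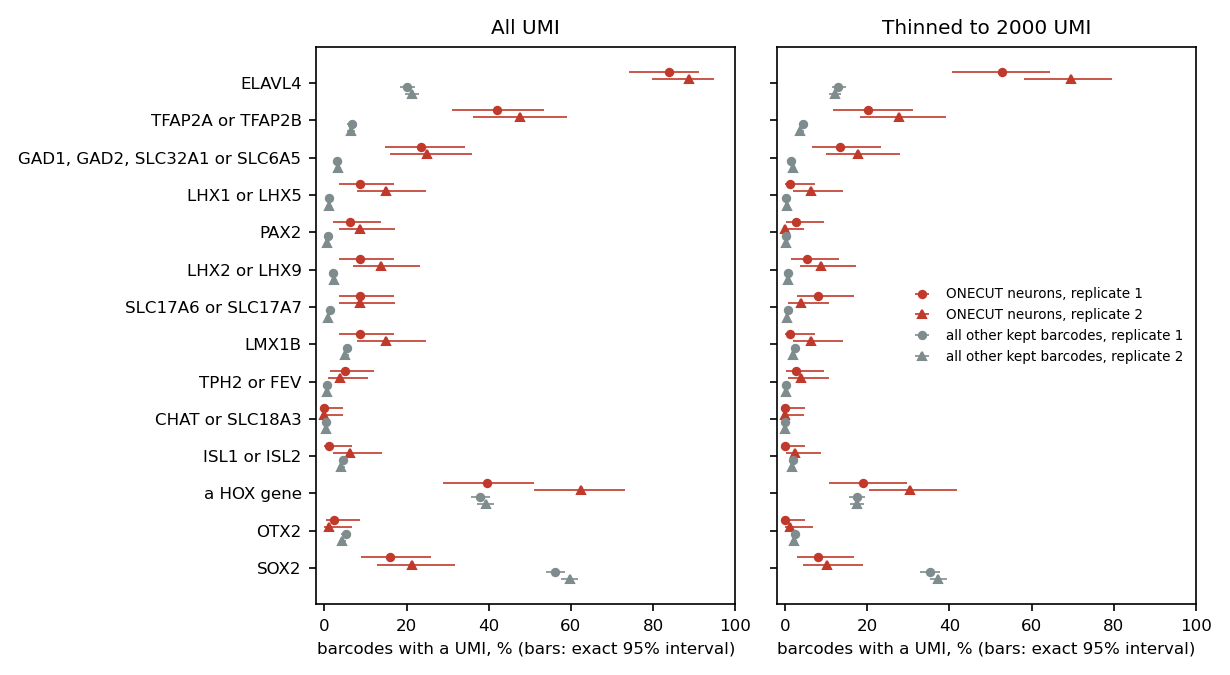
Percentage of barcodes with a UMI (x axis) of each gene or gene pair (rows) in ONECUT neurons and all other kept barcodes, with a circle for replicate 1, a triangle for replicate 2 and bars for the exact 95% interval, over all UMI (left) and with each barcode thinned to 2000 UMI (right). ELAVL4, TFAP2A or TFAP2B and the inhibitory genes lie to the right of the other barcodes in both panels, SOX2 lies to the left, and CHAT or SLC18A3 was seen in 0 ONECUT neurons.

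Of 11 tested motor neuron genes 0 were higher, and TBX3 and SLIT2 were lower, with a median log2 difference of -0.41. Within the classes SLIT3 alone was called under 3%, as higher, and SLIT2 alone at or above it, as lower. MNX1, CHAT and SLC18A3 had 0 UMI in ONECUT neurons, and ISL1 or ISL2, factors of motor and sensory neurons, had a UMI in 1 and 5 of them (1.23% and 6.25%, against 4.60% and 4.16% of the other barcodes). Of 9 tested sensory neuron genes 4 were higher (SNCG, EYA2, NTRK3 and NTRK2) and RUNX1 and SIX4 lower. Under 3% ribosomal protein 3 of 7 were higher and 2 lower, and at or above it SNCG was higher and RUNX1 lower. SNCG, a synuclein, had 21.9 and 40.0 CPM in ONECUT neurons, against 0.753 and 0.880 CPM, with 65.6% of its 32 UMI in 3 cells. POU4F1, which marks sensory and dorsal neurons in mouse, had a UMI in 8 ONECUT neurons, 7 of which had EBF2.

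Neuropeptide messages sat in a few cells. PENK, the enkephalin precursor, gave 761 and 195 CPM in ONECUT neurons, against 39.0 and 37.4 CPM in the other barcodes, but 74.2% of its UMI came from 3 cells, and edgeR did not call it over all barcodes (3.52, SE 0.91, adjusted p = 0.21), although it did within each ribosomal class (3.58 under 3% and 3.99 at or above it). SST, the somatostatin precursor, was called higher, with 13.2 and 41.9 CPM in ONECUT neurons against 1.88 and 2.17 CPM, although 72.4% of its 29 UMI came from 3 cells. TAC1, the substance P precursor, had 24.1 and 38.2 CPM, against 3.58 and 2.71 CPM, with 62.5% of its UMI in 3 cells. RELN, a secreted guidance protein of early neurons, was wider, with a UMI in 37 and 34 ONECUT neurons and 715 and 528 CPM, against 74.4 and 54.3 CPM (3.37, SE 0.14).

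Of 11 tested genes listed under N-glycan branching 5 were higher (ST8SIA4, MGAT5B, MGAT5, ST8SIA2 and FUT8) and 0 lower. Only MGAT5 and MGAT5B of these 5 are MGAT genes, and ST8SIA4, ST8SIA2 and FUT8 do not make branches. ST8SIA4, which builds polysialic acid on NCAM1, had 118 and 133 CPM in ONECUT neurons and 36.6 and 32.0 CPM in the other barcodes (1.98, SE 0.21). MGAT4A had 39.5 and 27.3 CPM in ONECUT neurons and 27.8 and 25.4 CPM in the other barcodes, and MGAT4B had 13.2 and 27.3 CPM, against 26.9 and 31.0 CPM, and neither was called. The same 5 were called under 3% ribosomal protein, and ST8SIA4 alone at or above it.

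CRABP1, which binds retinoic acid in the cytoplasm, was higher in ONECUT neurons and uneven among them. It had 3297 and 10843 CPM in ONECUT neurons, against 1077 and 1798 CPM in the other barcodes (2.21, SE 0.19). The replicates of ONECUT neurons differed more than 3-fold, and 10 cells held 75.9% and 74.3% of its UMI, while 20 and 13 ONECUT neurons had none. Of 11 tested retinoic acid genes 5 were higher, among them CYP26B1, CRABP1, RXRG and RARB, and DHRS3 was lower. At or above 3% ribosomal protein CRABP1 and RXRG were higher and DHRS3 lower of 9 tested, and under it 3 of 7 were higher, CRABP1 and RARB among them. In cells at or above 3% ribosomal protein CRABP1 stood at 9004 and 21895 CPM in ONECUT neurons, against 1703 and 2467 CPM in the other barcodes, and in cells under 3% at 991 and 1864 CPM, against 259 and 307 CPM.

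Genes of the Notch pathway, by which a progenitor is held back from becoming a neuron, were lower: 10 of 16 tested fell and JAG2, a ligand, rose (median -2.26). HES1, a Notch target that represses neuronal genes, had 6.58 and 7.28 CPM in ONECUT neurons and 127 and 116 CPM in the other barcodes (-4.03, SE 0.35). HES5 had 8.77 and 5.46 CPM, against 92.9 and 92.6 CPM. Of 15 tested progenitor genes 9 fell and DACH1 and PAX6 rose. SOX2, a factor of neural progenitors, had 43.8 and 45.5 CPM in ONECUT neurons, against 254 and 261 CPM (-2.43, SE 0.20). All 20 tested S phase genes and 19 of 20 genes of G2 and M fell. Within cells at or above 3% ribosomal protein 5 of 14 Notch, 8 of 15 progenitor, 13 of 20 S phase and 4 of 20 G2 and M genes were lower, and 9 of 14, 10 of 15, 18 of 20 and 18 of 20 were lower under 3%. FABP7 was the 1 progenitor gene higher at or above 3%, and DACH1 and PAX6 were higher under it. Cell-cycle exit genes were mixed, with 2 of 14 higher (CDKN2D and RBL2) and 5 lower, among them CCND1, a cyclin of G1, with 15.3 and 25.5 CPM in ONECUT neurons, against 133 and 132 CPM. Of the same 14 genes 2 were higher and 4 lower under 3%, and 1 was higher and 3 lower at or above it.

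The named falls were at or near 0 in ONECUT neurons. PAGE4, the trophoblast protein PAG2 and SRGN, a granule proteoglycan, had 0 UMI in ONECUT neurons. They were lower by at least 32.9-fold, 28.5-fold and 26.7-fold, taking 3 counts over both libraries together as the floor. These bounds pool libraries whose other barcodes differed in level. At or above 3% ribosomal protein the other barcodes had 237 and 103 CPM of PAGE4, 254 and 60.2 CPM of PAG2, and 182 and 36.6 CPM of SRGN. A bound from replicate 2 alone would be smaller. S100G, a calcium-binding protein, had 2 UMI in ONECUT neurons against 3834, a pooled level 75.9-fold lower (counting interval 21.0 to 627). SLC1A3, a glutamate transporter of glia, had 1 UMI and was 59.8-fold lower (10.7 to 2364). PRP1, A2M, AEBP1, LUM and DAB2 had 1 or 2 UMI in ONECUT neurons. All 10 were called within barcodes at or above 3% ribosomal protein. Under 3% only 4 of the 10 could be tested, of which SLC1A3 and DAB2 were called.

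Ribosomal protein genes, oxidative phosphorylation genes and early response genes also moved. All 40 ribosomal protein genes were lower in ONECUT neurons (median -1.38), as were 12 of 26 oxidative phosphorylation genes and 10 of 16 early response genes. Within the ribosomal classes oxidative phosphorylation had 2 of 26 lower and 1 higher under 3% and 1 of 26 at or above it, and early response genes had 10 of 16 and 6 of 16 lower. FOS, an immediate early gene, had 72.3 and 78.3 CPM in ONECUT neurons and 256 and 309 CPM in the other barcodes.

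The second comparison set ONECUT neurons against newborn neurons, the nearest stage in the embryo, of which there were 63 and 105. Of these newborn neurons 20 and 37 also passed on the 4 genes of the rule, so the 2 units are not cleanly separate types. SOX2 had a UMI in 61.9% and 59.0% of all newborn neurons, against 16.0% and 21.25% of ONECUT neurons. Progenitor and Notch genes were lower in ONECUT neurons, and several adhesion and AMPA receptor genes were higher. EdgeR called 1357 genes higher and 1423 lower out of 9284 tested (29.9%), but over barcodes with at least 3% ribosomal protein, with 21 and 28 ONECUT neurons, 219 were higher and 208 lower out of 7905 (5.4%, with 2.77% higher and 2.63% lower), against 14.6% higher and 15.3% lower over all barcodes. Of the calls over all barcodes 165 higher and 178 lower genes were shared with that restricted set. Since newborn neurons were chosen by INSM1, HES6 and DLL3, genes that vary with these were bound to be lower in ONECUT neurons.

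The named falls against newborn neurons were called in both sets. HES5, a Notch target, had 8.77 and 5.46 CPM in ONECUT neurons and 164 and 136 CPM in newborn neurons (-4.52, SE 0.40). CCND1 had 15.3 and 25.5 CPM, against 195 and 127 CPM, and SOX1, a progenitor factor, had 10.96 and 7.28 CPM, against 38.3 and 78.1 CPM. IGFBP5, SELENOM and SCRG1 had log2 differences of -3.78, -4.42 and -3.74, and FAM181B, with 2 UMI in ONECUT neurons, was 28.6-fold lower (counting interval 7.69 to 240.4). Progenitor genes had 10 of 13 lower and 0 higher over all barcodes and 7 of 12 lower in the restricted set, and Notch genes 7 of 10 and 3 of 8. GADD45G and CDKN1C, genes of cell-cycle exit, were lower in both sets.

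Of the 8 named rises 5 were called in both sets. TAFA2, a secreted protein, had 351 and 222 CPM in ONECUT neurons, against 31.0 and 18.7 CPM in newborn neurons (3.42, SE 0.27). NDST4 had 156 and 87.4 CPM, against 3.64 and 7.29 CPM, LRRC7, a postsynaptic scaffold, had 458 and 289 CPM, against 27.3 and 51.0 CPM, and SLC24A3, a sodium and calcium exchanger, had 89.9 and 109 CPM, against 16.4 and 8.33 CPM. NKAIN2 had 447 and 364 CPM, against 80.1 and 28.1 CPM. NR3C2, the mineralocorticoid receptor, was not called in the restricted set (3.29, edgeR adjusted p = 0.10), and SHISA9, an AMPA receptor partner, and TRHDE, a peptidase, could not be tested there.

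Neuronal lists depended on the set. Ion channels and receptors had 21 of 29 higher over all barcodes and 4 of 25 in the restricted set (GRIA4, GRIA1, GRIA2 and KCNB2), with 0 lower in both. GRIA1 had 320 and 246 CPM in ONECUT neurons and 45.5 and 61.4 CPM in newborn neurons (2.22, SE 0.22; 1.66 in the restricted set). Adhesion genes had 19 of 31 higher and 1 lower over all barcodes, and 10 of 29 higher and 2 lower in the restricted set, with L1CAM, CHL1 and CNTNAP2 in both, and synaptic genes 12 of 28 and 5 of 28. Axon guidance had 14 of 33 higher and 3 lower over all barcodes, and in the restricted set PLXNA4 and ROBO1 higher and EPHA3 and DCC lower. EPHA3, an ephrin receptor, turned round between the sets, higher over all barcodes (0.71) and lower in the restricted set (-1.93, edgeR adjusted p = 0.013). Pan-neuronal genes had 7 of 22 higher and 2 lower over all barcodes, and 9 of 22 higher and 0 lower in the restricted set, with MYT1L and MAPT higher in both. EBF1 was higher in both sets (1.82 and 1.59).

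Several markers of a neuron as such were not called between the stages. ELAVL4 had 517 and 633 CPM in ONECUT neurons and 566 and 575 CPM in newborn neurons (-0.10, SE 0.15, edgeR adjusted p = 0.66), with overlapping libraries. DCX (0.41, SE 0.17), STMN2 (-0.34, SE 0.17) and TUBB3 (-0.45, SE 0.17) were not called either, and ELAVL3 was lower (-0.56, SE 0.16) over all barcodes but not in the restricted set (-0.14, edgeR adjusted p = 0.81). In the restricted set STMN2 and TUBB3 had the opposite sign, 0.42 and 0.48, uncalled. CRABP1 was lower in ONECUT neurons over all barcodes (-1.28, SE 0.33) and not called in the restricted set (-0.20, edgeR adjusted p = 0.84). Interneuron factors gave 1 of 10 higher (FOXP2) and 1 lower (GATA3), and in the restricted set LHX9 alone was higher. All 40 ribosomal protein genes and 21 of 26 oxidative phosphorylation genes were lower over all barcodes, and 0 of 26 of the second list in the restricted set.

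The third comparison set ONECUT neurons against noradrenergic neurons (kept barcodes with a UMI of both DBH and HAND2), the other class of neuron, of which there were 40 and 45. Interneuron factors were higher in ONECUT neurons and autonomic factors lower. EdgeR called 1385 genes higher and 1496 lower out of 9284 (31%), and 211 and 178 out of 7905 over barcodes with at least 3% ribosomal protein (4.92%, with 2.67% higher and 2.25% lower), against 14.9% higher and 16.1% lower over all barcodes. Of the calls over all barcodes 195 higher and 150 lower genes were shared with that set.

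Of 10 tested interneuron factors 7 were higher in ONECUT neurons (LHX9, TFAP2A, LHX2, LHX1, LMX1B, FOXP2 and GATA2) and GATA3 was lower, and 4 of 10 were higher in the restricted set. Genes with 0 UMI in noradrenergic neurons were at least 15.2-fold (LHX9), 14.9-fold (EFEMP1, a matrix protein), 13.2-fold (TFAP2A) and 12.9-fold (THSD4 and ROBO3) higher in ONECUT neurons, with the same floor of 3 counts for noradrenergic neurons. RELN had 715 and 528 CPM in ONECUT neurons and 2.99 and 5.91 CPM in noradrenergic neurons, 137-fold higher (counting interval 46.8 to 668). EYA2, a coactivator of placodes and neurons, was 130-fold higher (23.0 to 5153). PENK, with 1 UMI in noradrenergic neurons, was 304-fold higher over all barcodes (54.2 to 12025), a value that rests on few cells. LHX9, TFAP2A, ROBO3, RELN and EYA2 were called in the restricted set, and EFEMP1, THSD4 and PENK were not (edgeR adjusted p = 0.060, 0.12 and 0.093). EBF1 had 1464 and 1564 CPM in ONECUT neurons, against 8.98 and 17.7 CPM (6.75, SE 0.39).

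All 8 named falls against noradrenergic neurons were called in both sets. PHOX2A, a factor of noradrenergic and cranial motor neurons, had 6.58 and 3.64 CPM in ONECUT neurons and 299 and 198 CPM in noradrenergic neurons (-5.71, SE 0.43). TH, which makes the precursor of dopamine, had 2.19 and 9.10 CPM, against 260 and 248 CPM (-5.52, SE 0.44), and SLC5A7, the choline transporter, 6.58 and 16.4 CPM, against 263 and 281 CPM. TBX2 had 0 UMI in ONECUT neurons and was at least 17.9-fold lower. GRP, a peptide precursor, was 68.0-fold lower (18.3 to 570.0). SCRG1, CCND1 and DCN, a matrix proteoglycan, had log2 differences of -6.03, -5.52 and -4.71. Of 9 tested motor neuron genes 8 were lower, among them PHOX2A and TBX3, which are also autonomic factors, and SLIT2 was higher. In the restricted set 5 of 8 were lower and SLIT2 was higher.

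The pan-neuronal genes depended on the set. They had 4 of 22 higher and 10 lower over all barcodes and 2 higher and 0 lower in the restricted set. STMN2 had 1738 and 2648 CPM in ONECUT neurons and 3714 and 3868 CPM in noradrenergic neurons (-0.91, SE 0.18), and -0.04 in the restricted set. ELAVL4 was not called (0.15, SE 0.16). Adhesion genes had 12 of 31 higher and 8 lower over all barcodes and 6 of 29 higher and 7 lower in the restricted set, synaptic genes 7 of 28 higher and 6 lower and then 3 higher and 4 lower, and ion channels 13 of 29 higher and 2 lower and then 4 of 25 higher and 3 lower. Among guidance receptors DCC (2.79, SE 0.20) and ROBO2 (1.93, SE 0.21) were higher in ONECUT neurons in both sets, and UNC5C, UNC5D and NRP2 were lower in both. ROBO1 was not called over all barcodes (-0.13) and was lower in the restricted set (-1.49). GRIA1, with 320 and 246 CPM in ONECUT neurons against 8.98 and 2.95 CPM, was higher in both sets. GAD2 was higher in ONECUT neurons (37.3 and 56.4 CPM, against 0 UMI in noradrenergic neurons) in both. Ribosomal protein genes were lower in 40 of 40 over all barcodes, and oxidative phosphorylation genes in 22 of 26 over all barcodes and 0 of 26 in the restricted set.

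GFP was lower in ONECUT neurons than in each other unit over all barcodes, and its level differed between the ribosomal classes. It stood at 745 and 910 CPM in ONECUT neurons, 2366 and 2711 CPM in newborn neurons, 2002 and 1901 CPM in noradrenergic neurons and 1674 and 1826 CPM in all other kept barcodes (-0.99, SE 0.15, against the last). Within cells under 3% ribosomal protein it stood at 326 and 363 CPM in ONECUT neurons and 529 and 547 CPM in the other barcodes, a difference that was not called (-0.32, edgeR adjusted p = 0.17). At or above 3% it stood at 1782 and 1584 CPM, against 2549 and 2401 CPM (-0.71, edgeR adjusted p = 0.045). A GFP UMI was present in 35 of 60 and 31 of 52 ONECUT neurons under 3%, and in 21 of 21 and 27 of 28 at or above it. In the set with at least 3% GFP was also lower than in newborn neurons (-0.81) and was not called against noradrenergic neurons (-0.27, edgeR adjusted p = 0.45).

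Position along the body axis was described by HOX genes, active in the hindbrain and spinal cord, and OTX2, active in forebrain and midbrain. A UMI of any of 37 HOX genes was present in 39.5% and 62.5% of ONECUT neurons, against 37.97% and 39.3% of the other barcodes. HOX genes without OTX2 were present in 31 and 49 ONECUT neurons, OTX2 without HOX genes in 1 and 0, both in 1 and 1 and neither in 48 and 30, so the planned comparison of these classes could not be made. HOXB2 had 78.9 and 106 CPM in ONECUT neurons and 33.7 and 37.6 CPM in the other barcodes (1.47, SE 0.22), and HOXA3 had 30.7 and 58.2 CPM, against 18.1 and 17.2 CPM (1.44, SE 0.33). These were the 2 genes called among 10 tested, with 0 lower, beside 17% higher and 18.4% lower over all genes tested. The count of rises in this list was thus near that of genes at large. Both were called under 3% ribosomal protein, where OTX2 was lower, and HOXB2 alone at or above it (HOXA3 edgeR adjusted p = 0.12). HOXB2 differed between the ribosomal classes of ONECUT neurons, with 183 and 175 CPM at or above 3%, against 36.9 and 49.5 CPM under 3%.

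Other differences between these classes of ONECUT neurons are given as levels only. EBF2 had 68.6 and 114 CPM at or above 3% ribosomal protein, against 320 and 475 CPM under 3%, and MGAT4C had 594 and 528 CPM, against 1139 and 1554 CPM. ONECUT1 was close in both, with 343 and 296 CPM, against 259 and 254 CPM. STMN2 had 3100 and 4783 CPM at or above 3%, against 1188 and 914 CPM under 3%, and TUBB3 1028 and 1649 CPM, against 262 and 191 CPM. ROBO1 had 1356 and 1470 CPM, against 5044 and 5506 CPM. Inhibitory genes were found in both classes, in 4 of 21 and 8 of 28 ONECUT neurons at or above 3% and in 15 of 60 and 12 of 52 under 3%.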

How the data were processed

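Cells of day 25 chimeric embryos gave 2 libraries. The values, as the authors deposited them, are unnormalized UMI counts of 17846 genes in 4437 barcodes. Per the submitters' processing notes, bosTau9 was the build, and Cell Ranger was used along with Seurat 4.3.0 under R 4.1.2. Columns were tied to libraries by their prefix. ONECUT neurons, the lists and the markers were chosen with earlier results of these data known. The summed counts of ONECUT neurons were 456188 and 549404 UMI, against 10630132 and 14772688 UMI in all other kept barcodes. Doublets were not called, and no ONECUT neuron exceeded 14255 UMI.

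For each unit the UMI of a library were added up. These sums went into the quasi-likelihood test of edgeR 4.0.16 in R 4.3.3, with TMM factors, robust fitting, the filterByExpr filter and a library term, which pairs the units of a library. The fit against all other barcodes had 4 sums, with 1 residual degree of freedom and a median prior of 34.7, and the newborn and noradrenergic comparisons shared 1 fit of 8 sums. P-values were adjusted by Benjamini-Hochberg over all genes tested, and genes of the rule were left out. SE is the log2 difference divided by the root of F. Named genes were the 15 largest rises and 10 largest falls against all other barcodes, and 8 and 8 in each other comparison, at an adjusted p under 0.05, if both libraries moved the same way and the higher unit reached 50 CPM, unnamed identifiers aside. The 5 markers, GFP and common neuronal genes are named in any case, with examples from the lists. Genes within the ribosomal classes were chosen after their values were seen. Shares carry exact 95% intervals, which cover counting error only.

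On simulated data with 13124 genes the comparison with all other barcodes recovered 57% of 2-fold and 90% of 4-fold changes with 4 false calls. With 8634 genes the newborn comparison recovered 51% and 91% with 17 false calls, and with 8649 genes the noradrenergic comparison recovered 41% and 89% with 4. Alternatives used DESeq2 1.42.0, limma 3.58.1, other gates and filters, and the ribosomal classes, which were added after seeing the data. No sequences or coordinates were used. Some genes of the lists and of the named-gene rule are not reported here.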

Additional observations from a re-analysis of the deposited data

How the results depend on the processing

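Over barcodes with at least 3% ribosomal protein UMI, an alternative chosen after seeing the data, the counts of called genes dropped to 2001 (901 higher, 1100 lower) against all other barcodes, 427 (219 and 208) against newborn neurons and 389 (211 and 178) against noradrenergic neurons, with fewer cells in each sum. Under 3% the first comparison gave 1824 higher and 1846 lower, and the others could not be fitted for lack of 20 barcodes per unit. DESeq2 gave 2200 calls (1299 higher, 901 lower) against all other barcodes, which turned the share of calls that were higher to 59.0%, against 48.0% with edgeR; the cause was not tested. Without the replicate block, calls were 2185 higher and 2236 lower against all other barcodes, 1184 and 1286 against newborn neurons, and 1230 and 1330 against noradrenergic neurons. Testing every gene without a filter on low counts moved the median log2 difference against all other barcodes to -0.36. In the set with at least 3%, the sign against newborn neurons turned for ELAVL4 (0.070), STMN2 (0.42) and TUBB3 (0.48), and against noradrenergic neurons for TUBB3 (0.59). Calls that turned round in that set were GPC5 (1.35 over all barcodes, -2.28 in the set) and HDAC9 (0.48, -2.92) against all other barcodes, EPHA3 (0.71, -1.93) and TUBA1A (-0.48, 0.52) against newborn neurons, and ENO1 (-0.55, 0.57) and TUBB (-0.45, 0.72) against noradrenergic neurons; under 3% NDUFB10 (-0.37, 0.92) and SLC25A6 (-0.56, 0.57) turned against all other barcodes. ELAVL4 against newborn neurons ran between -0.13 without replicate 2 and 0.14 without replicate 1. Leaving out a replicate leaves no residual degrees of freedom, so counts of calls could not be given. The share of ONECUT neurons fell to 3.31% in replicate 1 with a sum of at least 5 UMI, and to 3.22% and 2.73% with each barcode thinned to 2000 UMI before the rule was applied. Thinning lowered the shares of ONECUT neurons with a UMI to 1.35% and 6.33% for LHX1 or LHX5, 5.41% and 8.86% for LHX2 or LHX9, 20.3% and 27.8% for TFAP2A or TFAP2B, 13.5% for the inhibitory genes in replicate 1, 51.4% and 59.5% for GFP, 8.11% and 10.1% for SOX2, and 18.9% and 30.4% for a HOX gene. The planned comparison of ONECUT neurons with HOX genes and with OTX2 was not run, since OTX2 without HOX genes was present in 1 and 0 of them. Depth limits detection: at 2000 UMI PAX2 was found in 2 and 0 ONECUT neurons.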
